A study of Caenorhabditis elegans with 2 samples.

Results

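The heterochronic genes nhl-2, puf-9, lin-46 and ain-1 of Caenorhabditis elegans carried called binding sites of the zinc finger protein ZFP-3 near their 5′ ends in L4 larvae. They are 4 of the 32 protein-coding timing genes examined and 4 of the 889 genes, out of 19973 nuclear protein-coding genes, that were called bound. A gene was called bound when the summit of a peak lay between 1000 bp upstream and 200 bp downstream of its 5′ end in the conservative thresholded peak list, which holds 2010 peaks. The 4 genes were chosen by those peaks, so their presence in that list is a description and not a test. The timing genes lin-14, lin-28, lin-29 and lin-41, which had no such summit, were set beside them.

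Chromatin was taken from whole animals of strain RW12271, whose zfp-3 gene on chromosome X had been extended by CRISPR insertion with TY1, EGFP and 3xFLAG tags (allele st12271). Bleached, L1-starved cultures had been used to synchronize the larvae, which were 48 h of age. Sonicated chromatin of 200 to 800 bp was immunoprecipitated with an antibody against GFP. The design had 1 group of 2 biological replicates and no second genotype, stage or treatment, and a control experiment named in the labels was not analysed here. Both replicates carry the tagged protein, and all tissues of the animal were pooled, so a site used in few cells and a weak site in many cells cannot be told apart.

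Heterochronic genes set the order in which larval cells adopt stage-specific fates, and mutations in them make cells skip or repeat a stage. Many of them act through microRNAs: lin-4 and the let-7 family repress transcripts such as lin-14, lin-28, lin-41 and hbl-1 as development proceeds. NHL-2 and AIN-1 belong to the machinery that carries out such repression, PUF-9 is an RNA-binding protein of the Pumilio family that is needed for repression of hbl-1, and LIN-46, related to the scaffold protein gephyrin, acts downstream of lin-28.

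The sequences under the summits are shown because words frequent under the summits of this protein were placed differently among the sites. Each is the 201 bases centred on a summit of the conservative list, on the strand of the named gene, from the RefSeq WBcel235 assembly, which is the ce11 build. Capitals mark matches on either strand to AGACGCAG or to its parts of 6 letters (AGACGC and GACGCA and ACGCAG), words that were already known to be frequent under summits of these data.
nhl-2, chrIII:4899813-4900013, minus strand: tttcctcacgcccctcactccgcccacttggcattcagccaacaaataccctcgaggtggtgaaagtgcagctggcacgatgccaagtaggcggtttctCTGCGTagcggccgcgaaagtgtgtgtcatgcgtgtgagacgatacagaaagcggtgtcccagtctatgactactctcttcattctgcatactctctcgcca
puf-9, chrX:5841219-5841419, plus strand: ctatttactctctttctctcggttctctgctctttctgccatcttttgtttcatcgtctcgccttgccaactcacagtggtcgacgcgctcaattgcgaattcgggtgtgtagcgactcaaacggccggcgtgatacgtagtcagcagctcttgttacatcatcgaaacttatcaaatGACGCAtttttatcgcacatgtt
lin-46, chrV:12967893-12968093, plus strand: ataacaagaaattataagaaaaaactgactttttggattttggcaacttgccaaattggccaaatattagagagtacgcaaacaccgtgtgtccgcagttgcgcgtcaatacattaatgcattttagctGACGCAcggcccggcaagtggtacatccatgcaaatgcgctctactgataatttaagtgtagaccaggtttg
ain-1 stronger site, chrX:16612448-16612648, plus strand: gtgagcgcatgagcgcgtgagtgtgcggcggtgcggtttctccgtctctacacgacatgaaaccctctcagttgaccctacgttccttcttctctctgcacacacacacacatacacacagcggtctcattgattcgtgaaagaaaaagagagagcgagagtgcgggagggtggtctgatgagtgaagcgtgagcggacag
ain-1 weaker site, chrX:16612679-16612879, plus strand: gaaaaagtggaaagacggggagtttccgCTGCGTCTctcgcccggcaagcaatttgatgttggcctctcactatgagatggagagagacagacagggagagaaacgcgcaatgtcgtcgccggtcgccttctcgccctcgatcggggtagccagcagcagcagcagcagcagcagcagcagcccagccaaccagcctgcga

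The sites spanned the strength range of the list. Signal, the authors' strength of a peak on a scale that the sources used here do not give, was 266 at nhl-2, 248 at puf-9, 151 at lin-46, and 85.8 and 25.1 at the stronger and weaker sites of ain-1. The median over all 2010 peaks was 82.3 and the highest value was 778. The nhl-2 peak was ranked 76 and the puf-9 peak 89 of 2010, the lin-46 peak was ranked 262, and the ain-1 peaks were ranked 922 and 1922. Among the 889 bound genes, ordered by their strongest peak, nhl-2 was ranked 59, puf-9 67, lin-46 173 and ain-1 526. The first 3 genes therefore lay in the upper part of the list, whereas the stronger ain-1 site was near its median and the weaker one near its lower end.

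**Figure D1:**
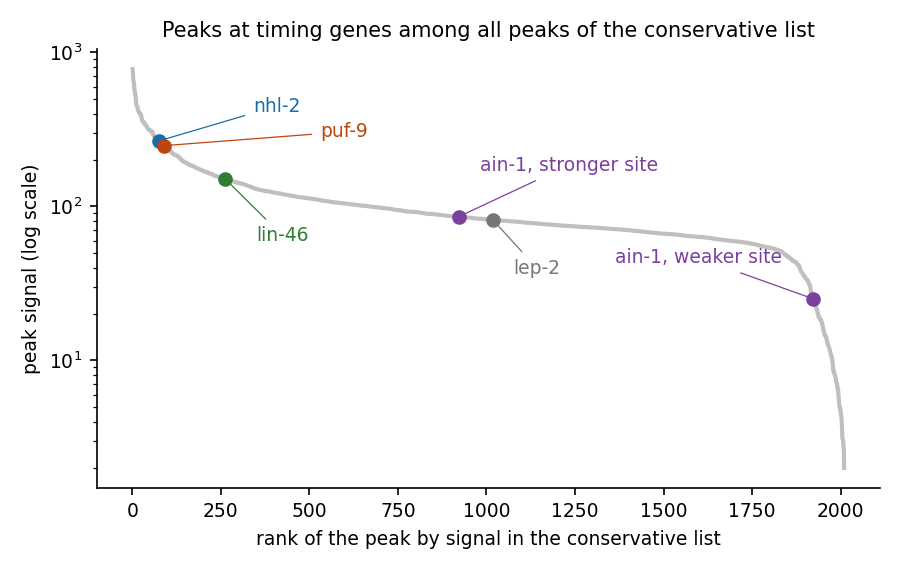
Signal of each of the 2010 peaks of the conservative list (grey line, log scale) against its rank, with the peaks at the 4 timing genes and at lep-2 marked. nhl-2 (266) and puf-9 (248) sit in the steep upper part of the curve, lin-46 (151) below them, and the ain-1 sites (85.8 and 25.1) near the middle and at the lower end.

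The nhl-2 gene (WBGene00003598, chrIII:4893658-4899085, minus strand) encodes a TRIM-NHL protein that acts as a cofactor of the microRNA-induced silencing complex. Its peak was called at chrIII:4899873-4900005 with the summit 828 bp upstream of the 5′ end. In replicate 1 the summit lay 867 bp upstream with a signal of 156, rank 58 of 931 peaks, and in replicate 2 it lay 824 bp upstream with a signal of 113, rank 94 of 933 peaks. The site was thus called in each library alone, among the stronger peaks of both, with summits 43 bp apart. The irreproducible discovery rate (IDR) is the authors' measure of how poorly a peak's rank repeats. In a list of 1 library it cannot describe repetition between the replicates. IDR was 1e-05 in the ranked list of replicate 1 and 1.62e-05 in that of replicate 2. The threshold behind the thresholded lists was 0.01. The same 1e-05 was given for nhl-2 in the ranked lists made from both libraries, so it may be the lowest value on the scale.

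The nhl-2 peak was 133 bp wide in the conservative list, where 3.08% of the 2010 peaks were as narrow and the median width was 336 bp. The width was not the same in the libraries: it was 77 bp in replicate 1 and 276 bp, the median of that list, in replicate 2. In the conservative list its summit lay in the exon of F26F4.14, 37 bp downstream of that gene's 5′ end. F26F4.14 is an annotated noncoding RNA gene of 149 bp (chrIII:4899802-4899950) on the same strand as nhl-2. The replicate 1 summit, at chrIII:4899952, lay just outside that gene. The divergent gene tag-340 lay on the other side of the site. The conservative-list summit was nearer to the 5′ end of tag-340, at 595 bp, than to that of nhl-2. The next summit of the conservative list was 30578 bp away. Weaker peaks that missed the IDR threshold lay closer to the nhl-2 5′ end, at 152 bp upstream with a signal of 11.2 in the ranked list of both libraries and at 307 bp upstream with a signal of 22.5 in replicate 2.

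The puf-9 gene (WBGene00004245, chrX:5841592-5845987, plus strand) had the summit closest to its own 5′ end of the 4 genes. The peak at chrX:5841243-5841352 had its summit 273 bp upstream. In replicate 1 the summit lay 296 bp upstream with a signal of 117, rank 108 of 931, and in replicate 2 it lay 290 bp upstream with a signal of 120.4, rank 79 of 933. The replicate summits were 6 bp apart, and the rank was high in both libraries. The order of nhl-2 and puf-9 was not the same in the replicates: nhl-2 had the higher signal in replicate 1 and puf-9 in replicate 2.

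The puf-9 peak was 110 bp wide in the conservative list, where 1.79% of all peaks were as narrow. In the single libraries it had the median width of each list, 290 bp in replicate 1 and 276 bp in replicate 2, so it was narrow only in the lists made from both libraries. Its summit lay in the exons of overlapping noncoding RNA genes on opposite strands, W06B11.7 of 181 bp on the minus strand and W06B11.9 of 177 bp on the plus strand. No second protein-coding gene had this summit in its window: the nearest other protein-coding 5′ end, that of dct-11, was 1541 bp away. The next summit of the conservative list was 40026 bp distant. The same peak was the nearest site to hbl-1, the timing gene that PUF-9 helps to repress, but at 19177 bp downstream of the hbl-1 5′ end and outside that gene. Of all 2010 summits, 177, or 8.81%, lay inside genes annotated as noncoding RNA, and of the 764 summits in promoter windows, 67, or 8.77%, did so, against the summits of 2 of the 4 timing genes. With 4 genes this count carries no comparison.

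The lin-46 gene (WBGene00003031, chrV:12968855-12970730, plus strand) had the most precisely repeated summit. The peak at chrV:12967825-12968160 had its summit 862 bp upstream of the lin-46 5′ end. In replicate 1 the summit was at the same base with a signal of 72.6, rank 315 of 931, and in replicate 2 it lay 860 bp upstream with a signal of 72.0, rank 275 of 933. The summits thus differed by 2 bp, and the signal exceeded that of 66.2% of the thresholded peaks in replicate 1 and 70.5% in replicate 2. IDR was 0.000696 in replicate 1 and 0.000556 in replicate 2.

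Although it was in the lin-46 window, the summit lay only 11 bp upstream of the 5′ end of R186.8, a gene on the opposite strand, and 783 bp upstream of that of R186.3. It was intergenic, in the shared upstream sequence of lin-46 and R186.8, and the assignment to lin-46 follows from the window alone. The next summit of the conservative list was 35583 bp away.

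The ain-1 gene (WBGene00015547, chrX:16613451-16616871, plus strand) encodes a GW182-family scaffold that joins Argonaute to the deadenylation and translation-repression machinery. It had 2 summits in its window, and 68 of the 889 bound genes (7.65%) had 2 or more. The stronger peak, chrX:16612380-16612715, had its summit 903 bp upstream, and the weaker peak, chrX:16612611-16612946, had its summit 672 bp upstream. The summits were 231 bp apart and the called intervals overlapped. Neither summit lay in the window of another gene, and the nearest other gene, F59C12.3, had its 5′ end 3024 bp from the stronger summit.

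The libraries differed more at ain-1 than at the other 3 genes. Replicate 1 had 1 thresholded peak, 966 bp upstream with a signal of 65.0 and rank 404 of 931. Replicate 2 had 2 peaks, 867 bp upstream with a signal of 28.4, rank 870 of 933, and 641 bp upstream with a signal of 25.6, rank 878. The ain-1 peak was thus mid-ranked in replicate 1 and near the end of the list in replicate 2, its summit moved by 99 bp, and the weaker site was called in replicate 2 alone. IDR in the ranked list of both libraries was 0.00386 at the stronger site and 0.00779 at the weaker one, just inside the threshold of 0.01. In the other thresholded list of the series neither was kept, as the corresponding IDR values were 0.0400 and 0.133. A further peak, 25 bp downstream of the ain-1 5′ end with a signal of 34.0, had an IDR of 0.501 and was not called.

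**Figure D2:**
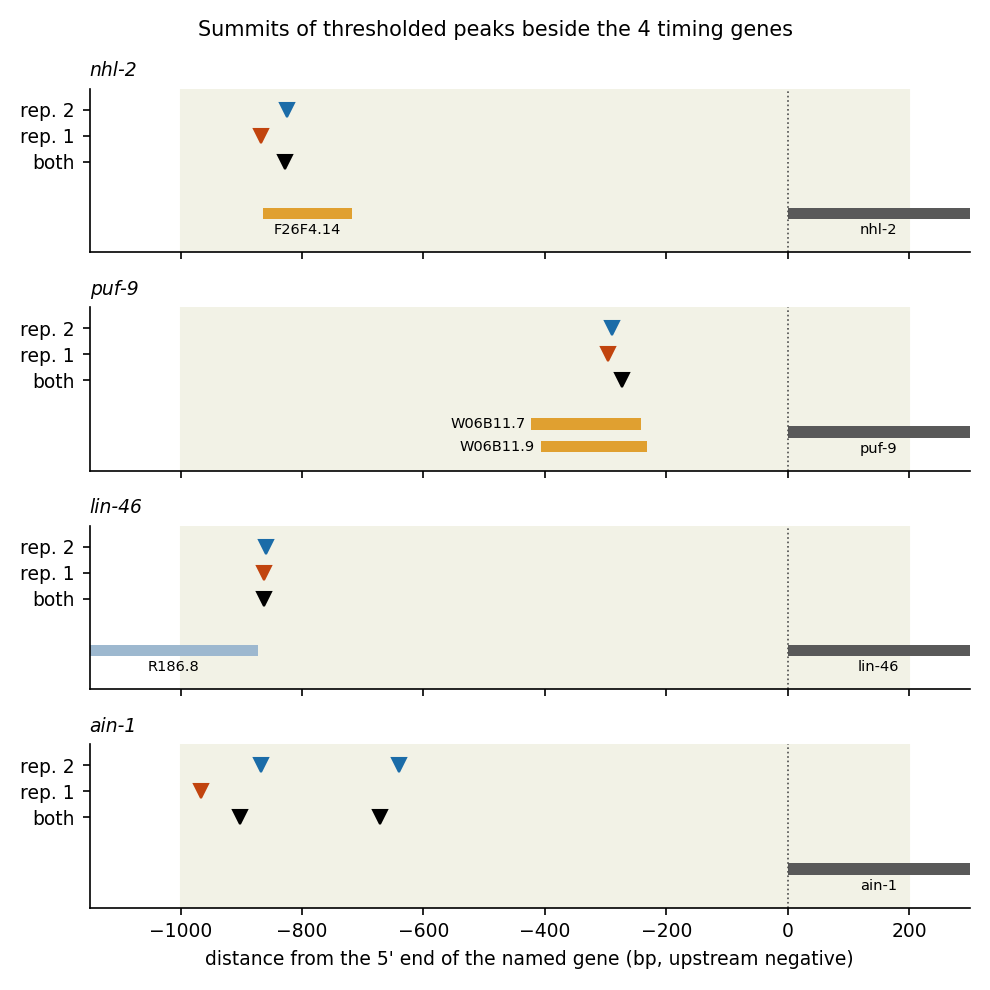
Positions of thresholded summits (triangles) relative to the 5′ end of each gene in bp, for the conservative list of both libraries (black), replicate 1 (orange) and replicate 2 (blue); the shaded band is the promoter window, and bars are annotated genes (dark grey for the named gene, amber for noncoding RNA genes, light blue for a neighbouring protein-coding gene). The strongest summits at nhl-2, lin-46 and ain-1 lie more than 800 bp upstream in the conservative list, the puf-9 summit lies at 273 bp, and the ain-1 summits spread most between lists.

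Most of these summits were far from the 5′ end. The strongest summit lay at least 800 bp upstream at nhl-2, lin-46 and ain-1, as it did at 68 of the 889 bound genes (7.65%). A window of this length takes in sites shared by neighbours: of the 764 summits in windows of protein-coding genes, 187 lay in several windows, and those at nhl-2 and lin-46 were among them while those at puf-9 and ain-1 were not.

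The counts of bound genes were read against the share of all protein-coding genes bound in the same list. In the conservative list 5 of the 32 timing genes (15.6%) were bound, beside a background of 4.45% over the protein-coding genes, and these were the 4 genes above and lep-2. In the other thresholded list of the series 4 were bound, namely nhl-2, puf-9, lin-46 and lep-2, beside 3.44%. In the list of replicate 1 the 4 genes were bound and lep-2 was not, beside 2.49%, and in the list of replicate 2 all 5 were bound, beside 2.30%. Because the genes were picked for having peaks and the single-library lists come from the same libraries, these shares give no independent support for a preference.

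By role, the counts of protein-coding genes stand beside the same share of 4.45% of all protein-coding genes bound in the conservative list. Of the 10 genes of the microRNA complex and of microRNA processing 2 were bound, ain-1 and nhl-2. The genes alg-1, alg-2, dcr-1, drsh-1 and pash-1, which encode Argonautes, Dicer and the Microprocessor subunits, were not bound. Of the 22 protein regulators of timing, lin-46, puf-9 and lep-2 were bound. In the families of the members, nhl-2 was the only bound gene of 5 TRIM-NHL genes and puf-9 the only one of 10 protein-coding PUF genes. Each of these families was listed because it holds a member, so at least 1 bound gene in it was fixed in advance. Lists this short carry no comparison with the share. Of 11 genes for the deadenylase complexes that GW182 proteins recruit and for poly(A)-binding proteins, ntl-11 and ntl-2 were bound. The ntl-11 site was 116 bp upstream of the 5′ end with a signal of 227, rank 109, and the ntl-2 site was 493 bp upstream with a signal of 82.4, rank 999. Of the 5 timing microRNA genes 1 was bound, beside a background of 7.66% over the 261 annotated microRNA genes. This was mir-48, of the let-7 family, with a summit 635 bp upstream of its annotated 5′ end with a signal of 48.8, rank 1842 and an IDR of 0.00783, and it was in none of the other 3 thresholded lists.

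The site at lep-2, which encodes a Makorin protein needed for the juvenile-to-adult switch, resembled that at ain-1 in strength. Its peak, chrIV:991257-991592, had a signal of 81.8, rank 1018, with the summit 858 bp upstream of lep-2 and 973 bp upstream of the divergent gene egrh-2. In replicate 2 it was called with a signal of 46.5, rank 703 of 933. In replicate 1 the peak had a signal of 41.8 but an IDR of 0.0680, and it missed the threshold. The site is shown for its repeat, in capitals: a unit of 25 bp repeated 3.88 times over 97 bp, a run that 0.199% of all summits matched in length within 100 bp.
lep-2, chrIV:991325-991525, plus strand: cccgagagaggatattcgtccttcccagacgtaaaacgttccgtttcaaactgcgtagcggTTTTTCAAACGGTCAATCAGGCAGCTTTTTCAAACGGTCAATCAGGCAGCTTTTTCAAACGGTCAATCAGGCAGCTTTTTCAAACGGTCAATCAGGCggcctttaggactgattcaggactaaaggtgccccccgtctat

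Some genes just outside the thresholds had values close to those inside in the ranked list of both libraries. The peaks there of cgh-1, which encodes an RNA helicase that works with NHL-2, and of din-1 were stronger than the weaker ain-1 site. Their signals were 50.5 and 55.9, but their IDR values were 0.0129 and 0.0136 and they were not called. In the other ranked list of both libraries IDR was 0.230 for cgh-1 and 0.0128 for din-1. In replicates 1 and 2 it was 0.0194 and 0.712 for cgh-1, and 0.709 and 0.492 for din-1. The distance rule acted similarly to the IDR threshold. A peak with a signal of 136 lay 1213 bp upstream of xrn-2, which encodes an exonuclease that degrades microRNAs. That peak was 213 bp outside the window. A peak with a signal of 53.9 lay inside ain-2, the paralog of ain-1, at 696 bp downstream of the 5′ end.

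The ranked lists hold weaker peaks and let the 4 unbound genes be described. A ranked peak lay in the window of 70.9% of protein-coding genes, so the strongest signal in the window was compared. For lin-14, which encodes a transcription factor of early larval fates, the strongest peak had a signal of 50 at 97 bp upstream in the ranked list of both libraries, with an IDR of 0.0761. For lin-28, an RNA-binding protein that blocks let-7 maturation, it was 36.0 at 473 bp upstream, with an IDR of 0.154. For lin-41, a TRIM-NHL protein like NHL-2, it was 34.6 at 708 bp upstream, with an IDR of 0.512, and for lin-29, the zinc finger factor of the larval-to-adult switch, it was 9.05 at 602 bp upstream, with an IDR of 0.816. All 4 values were below the 85.8 of the stronger ain-1 site, but those of lin-14, lin-28 and lin-41 were above the 25.1 of the weaker ain-1 site, which was called.

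As a share of all protein-coding genes, 0.300% had a ranked peak at least as strong as that of nhl-2, 0.335% for puf-9, 0.876% for lin-46 and 2.72% for ain-1. The same share was 8.94% for lin-14, 20.8% for lin-28, 22.9% for lin-41 and 66.6% for lin-29. In replicate 1 the bound genes ranged from 0.255% for nhl-2 to 1.40% for ain-1, and the unbound genes from 9.92% for lin-28 to 36.4% for lin-41. In replicate 2 the groups overlapped: ain-1 stood at 7.48% and lin-14 at 4.76%, with a lin-14 signal of 33.9 against 28.4 at ain-1. The lin-14 peak of replicate 2 nevertheless had an IDR of 0.0950 and was not called, while the ain-1 peak was. For lin-29 no ranked peak lay in the window in either replicate. A called peak of the conservative list did lie inside the lin-29 gene, with a signal of 63.0 and rank 1614. Its summit was 17518 bp downstream of the 5′ end of that gene (chrII:11917642-11935343, minus strand), close to the 3′ end.

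**Figure D3:**
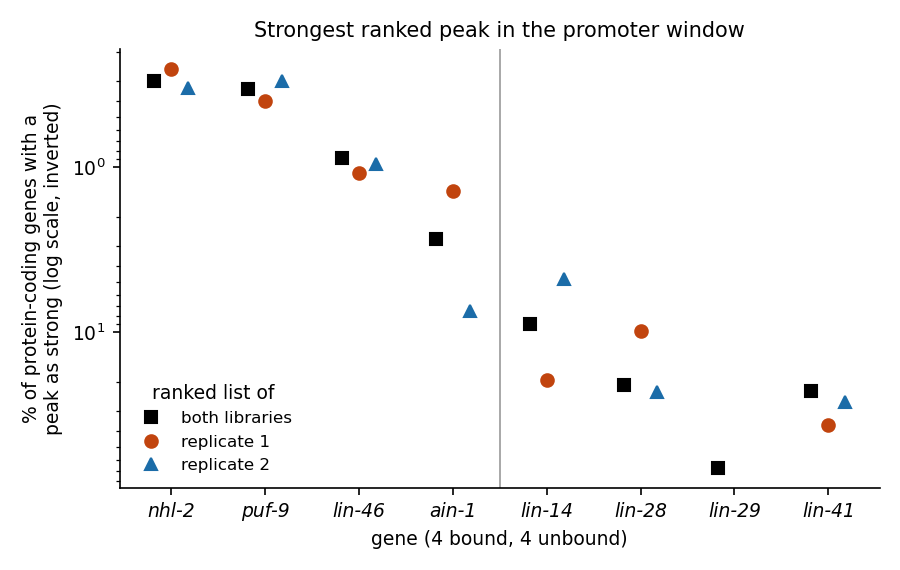
Share of all protein-coding genes whose strongest ranked peak in the promoter window was at least as strong as that of the named gene (percent, log scale, inverted so that strong sites are at the top), in the ranked list of both libraries (squares), replicate 1 (circles) and replicate 2 (triangles). nhl-2, puf-9 and lin-46 stay above the 4 unbound genes in all 3 lists, whereas ain-1 (7.48%) lies below lin-14 (4.76%) in replicate 2. lin-29 has no peak in the window in either replicate. The 4 bound genes were chosen by their called peaks, so the separation is a description.

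Over the whole timing list, 29 of 32 genes (90.6%) had a ranked peak in the window, against 70.9% of all protein-coding genes. Their median strongest signal was 39.1, against 27.2 over the 14153 protein-coding genes with such a peak. Without the 4 members 89.3% had a peak, and the median was 37.9 over 25 genes. These values are from the ranked list of both libraries, and the single libraries differed. Without the members the median was 24.38 in replicate 1, against 20.70 over all protein-coding genes with a peak. A peak was present at 71.4% of these timing genes there, against 39.6% of all protein-coding genes. In replicate 2 the median was 18.58 against 18.75, so it was not higher there, and the shares were 67.9% and 40.7%. Each median covers only genes with a peak, so the medians rest on unlike shares of genes. These differences were not tested. In the ranked list of both libraries the members had the 4 highest values of the timing genes, lep-2 at 81.8 followed, and din-1 at 55.9 was the next. That list holds the called peaks with the same signal, so this order restates the peaks by which the members were chosen. The genes pash-1, nhr-23 and daf-9 had no ranked peak in the window.

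**Figure D4:**
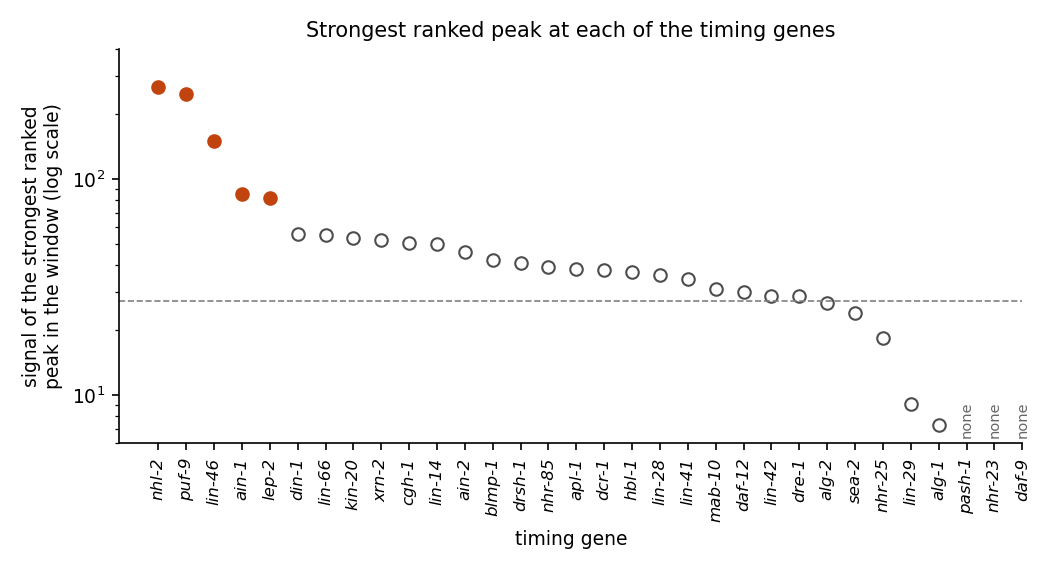
Signal of the strongest ranked peak in the window (log scale) for the 32 timing genes, ordered by that value; filled points are genes bound in the conservative list, open points are not bound, and the dashed line is the median over all protein-coding genes with a ranked peak (27.2). The 5 bound genes hold the highest values, from 266 at nhl-2 to 81.8 at lep-2, and pash-1, nhr-23 and daf-9 have none. The list holds the called peaks with the same signal, so the place of the bound genes is a description.

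The sequence words in the printed windows were unevenly placed. Within 50 bp of the summit, ACGCAG was present at nhl-2, on the strand opposite to the gene, from 1 base upstream to 4 bases downstream of the summit base. GACGCA was present at lin-46, 29 to 34 bases downstream of the summit. At puf-9 GACGCA began 78 bases downstream of the summit and so fell outside 50 bp. The strong nhl-2 site thus had a 6-letter word at its conservative-list summit, whereas the puf-9 site of similar rank had none within 50 bp. The nhl-2 summit lay 39 bp from that position in replicate 1 and 4 bp from it in replicate 2. The word was therefore not at the summit in replicate 1.

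At ain-1 the stronger site had none of the 4 words within 150 bp, and the weaker site had the full AGACGCAG, on the opposite strand, 72 to 65 bases upstream of its summit. That word lies between the ain-1 summits. Any of the 4 words was within 50 bp of 16.4% of the 2010 summits, and in windows placed at the same distances from the 5′ ends of all protein-coding genes the share was 4.24% to 4.82%. Within 150 bp the shares were 29.6% of summits and 12.2% to 14.6% of genes. The words were already known to be frequent under these summits, so a higher share there was fixed in advance. Only 764 of the 2010 summits lay in windows of protein-coding genes, so the positions compared also differ in kind. The tRNA B box GTTCGANNC, present within 50 bp of 6.07% of all summits on either strand, was at none of the 5 sites. A match is a description of letters and does not mark the base that was bound.

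Base composition also varied among the sites. In the 101 bases around the summit the GC content was 56.4% at nhl-2, 57.4% at puf-9, 49.5% at lin-46, and 46.5% and 56.4% at the stronger and weaker ain-1 sites, against a median of 44.6% over all summits. All 5 were above that median, and the puf-9 site exceeded 92.3% of summits. The stronger ain-1 site had a run of 14 bases of the repeated unit CA that began 2 bases upstream of the summit and covered it. Of all summits, 16.0% had a run as long. The weaker site had a CAG repeat of 31 bases that began 51 bases downstream of the summit, and 1.49% of summits had a run as long.

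The bound genes whose strength was most like that of each member were found by the distance between percentiles of signal in the conservative list and in the ranked lists of replicates 1 and 2, over 871 genes. For nhl-2 the nearest were tag-340, which has the same summit, and H41C03.3, at a distance of 0.103 percentile points. For puf-9 they were mtcu-2 at 0.259 and vig-1 at 0.360, and for lin-46 they were R186.3 and R186.8, which share its summit. For ain-1 the nearest genes, F42F12.14 at 2.63 and usp-4 at 2.73, were farther away than those of the other members, and both had a smaller gap between the replicates than ain-1.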

How the data were processed

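Peak lists of chromatin immunoprecipitation sequencing were analysed as deposited, from 2 samples forming 1 group. Per the file headers and the notes deposited with them, each library has a ranked and a thresholded list, and the series has 2 pairs of lists made from both libraries. The signal and the score are the authors' deposited values: the score is a scaled IDR, whose minimum of 830 in the thresholded lists stands for an IDR of 0.01. The ranked lists give the global IDR as a deposited −log10 value. Aligner, peak caller, versions and depth were not given in the sources used here; signal was set side by side only within a list.

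Genes came from Ensembl release 115 (WBcel235, chromosome lengths as in ce11). Summits were placed in windows of 1000 bp upstream to 200 bp downstream of each gene's outermost 5′ end with Python 3.11.15, numpy 2.4.6 and pandas 2.3.3, and figures were drawn with matplotlib 3.10.9. The assignment was tested on simulated data. No test was run, because the members were selected by these values and the replicates form 1 group. The members, lists and words were chosen with earlier results of these data known.

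Named genes were the 4 members, the 4 unbound genes, bound genes of the lists, genes around member summits, the listed genes nearest outside the window, and the 2 most alike bound genes per member. Other names were chosen after their values were seen. The ntl-1 gene was not matched and was left out. Alternatives were other windows, lists, thresholds, 5′ ends and rules for shared summits.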

Additional observations from a re-analysis of the deposited data

How the results depend on the processing

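Of the 32 timing genes, 5 were bound in the main setting. The count fell to 1, puf-9, with a window of 500 bp upstream to 100 bp downstream, and rose to 8 with 2000 bp upstream to 500 bp downstream, which added cgh-1, din-1 and xrn-2. It was 3 with the 502 strongest peaks (lin-46, nhl-2 and puf-9) and 3 when each summit went only to the nearest 5′ end (ain-1, lep-2 and puf-9). The share of all protein-coding genes bound is not given for these settings. A longer window takes in more summits at any gene, so these counts cannot be read as a change in preference. The number of members bound, 4, fell to 1 with the short window and to 2 with the nearest 5′ end (ain-1 and puf-9). The losses with the short window follow from the distance of the summits, those with the nearest 5′ end from neighbours nearer to the nhl-2 and lin-46 summits, and those with the 502 strongest peaks from the ranks of ain-1 (922) and lep-2 (1018). Leaving out a replicate gave 4 to 5 timing genes, the lower count without replicate 2, and 4 members each time. The number of unbound comparison genes with a site was 0 under every alternative run. These genes were chosen for having no such summit. Their nearest summits of the conservative list lay from 12917 bp (lin-28) to 54635 bp (lin-14) outside the window. The other windows and the subsets of that list therefore could not have changed this count. Of 58 other values, percentiles and distances, 27 stayed within 1 SD of the replicates and 31 moved by more. That SD rests on 2 replicates. The lin-46 summit at 860 bp upstream in replicate 2, against 862 bp, counted as moved. The ain-1 summit at 966 bp in replicate 1, against 903 bp, did not. Percentiles were also compared across lists of 931 to 106942 peaks, so the split does not measure stability. The percentile of ain-1 fell from 54.1 to 6.75 without replicate 1. No paired analysis was possible because the design has 1 group. Counts of reads were not used here, so no interval or detection limit could be given, and precision rests on 2 libraries.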
